A study of Mus musculus with 6 samples.

Results

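Genes of mitosis and the spindle were followed in mouse acute myeloid leukemia cells with and without the nuclear receptor gene Ppara. The 58 genes were chosen by name for their roles in cell division, not by a threshold on their signals, and were read on microarrays through probe sets that the platform annotation pairs with a single gene symbol. Of the 58 genes, 56 were measured, out of 30142 genes tested in all. Ccnb1 (cyclin B1) was not among the genes named by the annotation used here, and the probe set of Foxm1, a transcription factor of mitotic genes, is paired with a second gene, so neither was read. Each of the 56 measured genes had 1 such probe set.

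The leukemias were driven by MLL-AF9, a fusion oncogene carried with green fluorescent protein (GFP) on the MSCV retrovirus. Both groups hold this fusion and GFP, and they differ in the Ppara genotype of the leukemia cells, Ppara+/+ or Ppara-/-. Mononuclear cells were taken from the marrow of mice that had received a second transplant, GFP-positive cells were sorted, and total RNA of 3 Ppara+/+ and 3 Ppara-/- samples was hybridised. The labels give no age and no recipient genotype, and they do not say whether the 3 replicates of a genotype were different leukemias. The p-values therefore refer to the scatter among these 6 samples, which may be technical.

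As background, a cell enters mitosis when cyclin-dependent kinase 1, bound to A- and B-type cyclins, becomes active. Polo and Aurora kinases then build the spindle, kinetochores attach chromosomes to it, and the spindle checkpoint holds back the anaphase-promoting complex until every chromosome is attached. Most of these genes are transcribed mainly in G2 and mitosis, so that in a mixed population their RNA is known to follow the share of dividing cells. In a bulk sample, fewer dividing cells and less RNA per dividing cell cannot be told apart.

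The values are log2 array signals, so a difference of 1 is a doubling of signal, and signals of different genes are not compared as RNA levels. The median of the negative-control probe sets was highest on 2 arrays, Ppara+/+ replicate 1 (5.16) and Ppara-/- replicate 2 (4.99). On the rest it was 4.63 to 4.81. Both arrays also stood apart in most members. Ppara itself had signals of 4.87, 5.19 and 5.18 in Ppara+/+ replicates 1 to 3 and of 5.29, 5.05 and 5.23 in Ppara-/- replicates 1 to 3. These lie near the negative-control medians, and the part of the gene that the probes match is not known, so they do not check the genotype labels. Of 14 measured leukemia and myeloid markers 13, all but Hoxa10, had a mean signal over 7.91, the lowest array's 95th percentile of the negative controls. Of 49 measured erythroid, B cell, T cell, NK cell, megakaryocyte and stromal markers 1 did, Pecam1. These counts describe which probe sets were brighter than most controls and do not measure the share of any cell type.

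The mitosis genes were slightly lower on average in Ppara-/- than in Ppara+/+ leukemia, and no member passed the test. The mean over the 56 members was 8.43, 8.14 and 8.08 on Ppara+/+ replicates 1 to 3. On Ppara-/- replicates 1 to 3 it was 7.97, 8.41 and 7.88. Ppara-/- replicate 2 thus lay beside the highest Ppara+/+ array, while the other Ppara-/- arrays lay below every Ppara+/+ array. The group means were 8.09 ± 0.28 in Ppara-/- and 8.22 ± 0.19 in Ppara+/+ (SD, n = 3), and their difference of -0.13 was smaller than either SD.

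**Figure D1:**
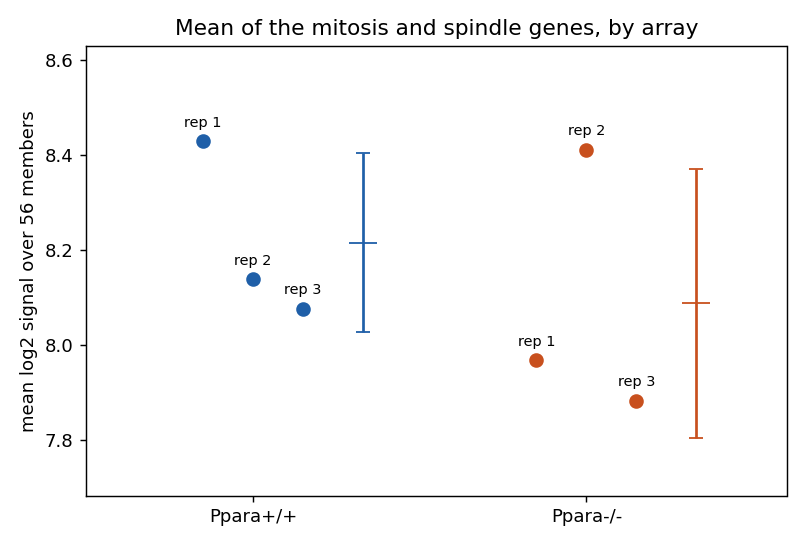
The mean log2 signal over the 56 measured mitosis and spindle genes is plotted for each array, with Ppara+/+ in blue and Ppara-/- in orange and the group mean ± SD (n = 3) beside the points. Ppara+/+ replicate 1 at 8.43 and Ppara-/- replicate 2 at 8.41 sit above the other 4 arrays, which run from 7.88 to 8.14.

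Of the 56 members, 49 had a lower mean in Ppara-/-, 6 a higher one, and Anln had equal means. The median log2 difference was -0.11, against 0.02 over all 30142 genes, of which 41.6% had a lower mean. Genes of weak signal made up most of that background, so the same counts were taken among the 4001 genes above the 95th percentile of the negative controls on at least 3 arrays. Among these, 28 of 32 members had a lower mean and their median was -0.12, while 54.2% of the 4001 genes had a lower mean and their median was -0.02. Members that vary together are not independent, so these counts describe the list and test nothing.

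With limma, and Benjamini-Hochberg adjustment over all 30142 genes, 0 of the 56 members had an adjusted p under 0.05, and the rate over all genes was 0.126%. At an unadjusted p under 0.05 the count was also 0, where 5.78% of all genes stood. The lowest unadjusted p was 0.115, that of Ccna2, and in 43 members the standard error (SE) of the difference was larger than the difference. The 3 Ppara-/- values lay below the 3 Ppara+/+ values in 1 member, Espl1, where 3.63% of all genes had that order.

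The largest variation of these genes was within each genotype. Ppara+/+ replicate 1 was the highest of its genotype in 48 of 56 members and Ppara-/- replicate 2 in 50, and both held in 46 members (82.1%). The same pattern was seen in 15.9% of all genes and in 41.4% of the 4001 genes of stronger signal. Taken singly, Ppara+/+ replicate 1 was highest of its genotype in 27.9% of all genes and 55.7% of the 4001. For Ppara-/- replicate 2 the shares were 24.9% and 53.1%. Ppara+/+ replicate 1 exceeded the mean of its 2 companions by 0.32 in the mean over members, and Ppara-/- replicate 2 exceeded its companions by 0.49. Over the 4001 genes these excesses were 0.16 and 0.06, and over all 30142 genes they were -0.06 and -0.06. In the mean over all genes both arrays thus lay below their companions. At the other end, Ppara-/- replicate 3 alone held the lowest of the 6 values in 38 members (67.9%). It did so in 14.0% of all genes and in 31.1% of the 4001.

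**Figure D2:**
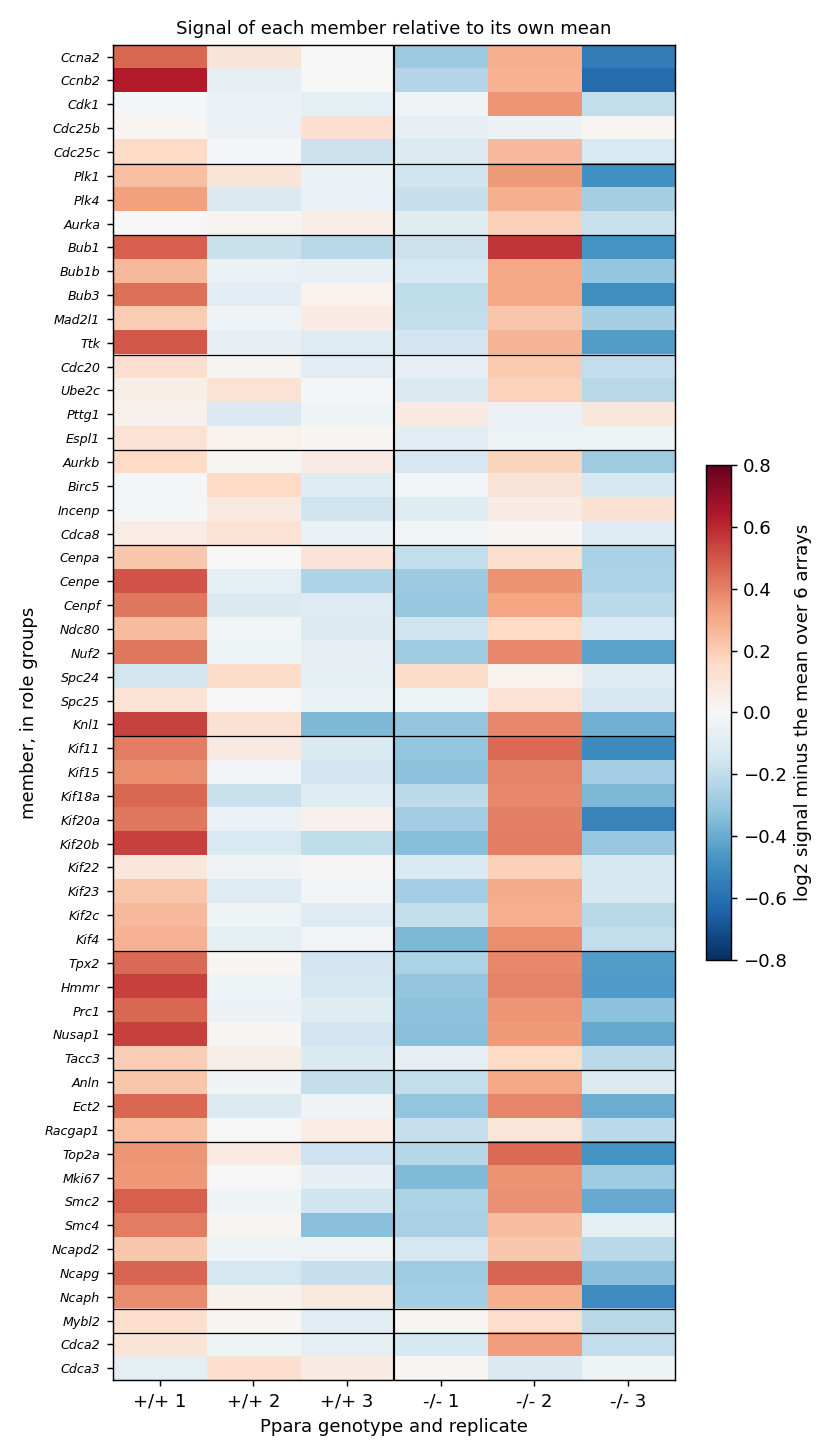
Each row is a member and each column an array, and the colour gives the log2 signal minus that gene's mean over the 6 arrays, with role groups parted by black lines. The columns of Ppara+/+ replicate 1 and Ppara-/- replicate 2 are high in most rows, and in 38 of the 56 rows Ppara-/- replicate 3 is the lowest.

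The arrays with high mitosis signals were those with the highest negative-control medians. This did not hold for the 95th percentile of the controls. That was 8.23 on Ppara+/+ replicate 1, 8.22 on Ppara+/+ replicate 3 and 8.20 on Ppara-/- replicate 2. With the negative-control median of each array as a covariate in the fit, the median difference of the members was -0.01 and 31 of 56 had a lower mean. Without Ppara+/+ replicate 1 the median was -0.02 and 32 of 56 were lower. Leaving out Ppara-/- replicate 1 or 3 gave medians of -0.05 and -0.04, and leaving out Ppara+/+ replicate 2 or 3 gave -0.18 and -0.17. When Ppara-/- replicate 2 was the array left out, the median was -0.30 and 53 of 56 were lower. In that fit 20 of 56 members, all lower, had an unadjusted p under 0.05 (limma), against 7.97% of all genes. With Ppara+/+ replicate 1 left out as well, the median was -0.155 and 54 of 56 were lower. Then 15 of 56 members had an unadjusted p under 0.05 (limma), against 9.52% of all genes. Ppara-/- replicate 2 was high in most members, which vary together, so these counts depend on the array left out and test nothing. The number of members with an adjusted p under 0.05 was 0 in each of these fits (limma). The part of the control signal in the order of the arrays was not tested.

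**Figure D3:**
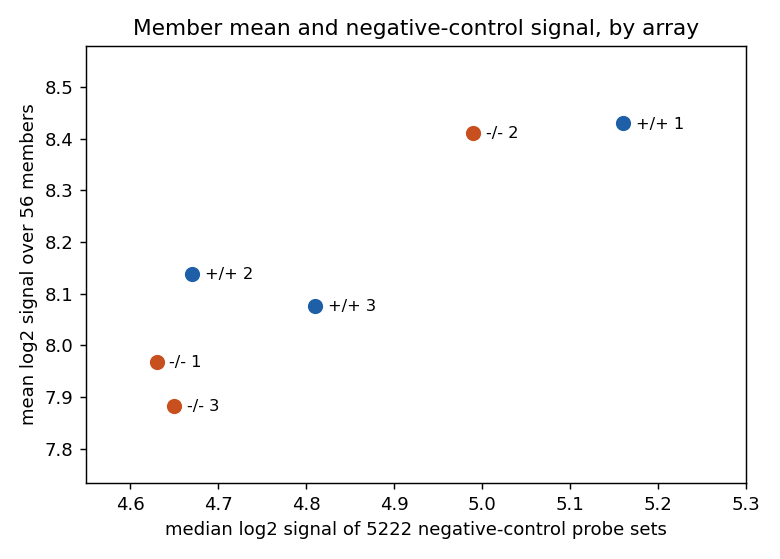
The mean log2 signal over the 56 members is plotted against the median log2 signal of the 5222 negative-control probe sets, 1 point for each array, with Ppara+/+ in blue and Ppara-/- in orange. Ppara+/+ replicate 1 and Ppara-/- replicate 2 are at the upper right, with control medians of 5.16 and 4.99, and the other 4 arrays have control medians of 4.63 to 4.81.

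Genes of late cell cycle are known to carry a cell cycle genes homology region (CHR), which recruits the MuvB complex and with it either the repressor DREAM or the activators B-MYB and FOXM1, together with CCAAT boxes bound by NF-Y. Since most members varied together between arrays, their promoters were searched for these elements in RefSeq windows of build GRCm38.p6 that run from 250 bases before to 50 bases after the gene start. A window was held for 48 of the 58 genes, with 51 windows because 3 genes had 2. The CHR was taken as TTTGAA or TTCGAA and the CCAAT box as CCAAT, each on either strand, and matches that overlap were counted separately. A CHR was present in 39 of 51 windows (76.5%), against 19.2% of all 32851 promoter windows of that length. A CCAAT box was present in 35 of 51 (68.6% against 37.4%), both elements in 33 (64.7% against 7.525%), and 2 or more CCAAT boxes in 23 (45.1% against 11.7%). An E2F site, taken as TTTCCCGC, TTTGGCGC, TTTCGCGC or TTTGCCGC on either strand, was present in 5 of 51 windows (9.8%) and in 744 of the 32851 (2.3%). The windows were not matched for base composition, and a match of letters is not a bound site.

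The 150 bases before the gene start are shown for 6 members with both elements and for Pttg1, whose window held none of the 3, as examples of a CHR close before the start. Each is from GRCm38.p6 and written 5′ to 3′ on the strand of the gene, with CHR and CCAAT matches in capitals.
Cdk1, chr10:69352913-69353062, minus strand: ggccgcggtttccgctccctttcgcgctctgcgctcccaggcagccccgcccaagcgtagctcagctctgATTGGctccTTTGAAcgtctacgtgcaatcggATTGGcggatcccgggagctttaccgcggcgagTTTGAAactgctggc
Cdc20, chr4:118437344-118437493, minus strand: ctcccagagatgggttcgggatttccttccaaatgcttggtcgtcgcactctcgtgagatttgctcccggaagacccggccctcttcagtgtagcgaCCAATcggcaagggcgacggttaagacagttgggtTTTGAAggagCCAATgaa
Ube2c, chr2:164769779-164769928, plus strand: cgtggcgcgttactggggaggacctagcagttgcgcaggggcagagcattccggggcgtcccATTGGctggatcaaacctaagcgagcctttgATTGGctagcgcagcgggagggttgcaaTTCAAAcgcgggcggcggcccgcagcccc
Kif11, chr19:37376232-37376381, plus strand: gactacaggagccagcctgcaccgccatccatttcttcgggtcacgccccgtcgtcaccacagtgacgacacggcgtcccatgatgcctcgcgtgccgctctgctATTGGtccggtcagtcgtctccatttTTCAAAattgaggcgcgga
Top2a, chr11:99024190-99024339, minus strand: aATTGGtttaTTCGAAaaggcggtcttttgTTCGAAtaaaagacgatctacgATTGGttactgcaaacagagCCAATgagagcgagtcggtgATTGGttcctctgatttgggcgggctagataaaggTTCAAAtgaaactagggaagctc
Espl1, chr15:102296143-102296292, plus strand: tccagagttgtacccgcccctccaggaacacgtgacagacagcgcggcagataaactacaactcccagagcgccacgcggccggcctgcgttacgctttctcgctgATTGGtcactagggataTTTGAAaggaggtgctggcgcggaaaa
Pttg1, chr11:43425982-43426131, minus strand: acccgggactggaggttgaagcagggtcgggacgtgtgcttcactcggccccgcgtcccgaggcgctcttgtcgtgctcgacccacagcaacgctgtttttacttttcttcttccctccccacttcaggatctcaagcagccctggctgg

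In these sequences the CHR match nearest to the gene start has its first base at position -15 in Cdk1, -18 in Cdc20, -19 in Kif11, -23 in Top2a, -27 in Espl1 and -29 in Ube2c, counted back from the start, and a CCAAT box lies further upstream in each. Other members had the letters elsewhere. Of the 36 measured members with a CHR match, 14 had it only before the start, 18 only after it and 4 on both sides, and in 10 a match began within 30 bases before the start. Plk1, Aurka and Cenpf were among those with a match only after the start, and Kif2c, Ncapd2 and Mki67 had theirs further upstream. The measured members with a window were then parted by the CHR letters, as a description. Among the 36 measured members with a CHR match the median difference between genotypes was -0.12, and among the 11 without it was also -0.12. The excess of Ppara+/+ replicate 1 had a median of 0.325 with and 0.32 without the match, and that of Ppara-/- replicate 2 had 0.555 and 0.51. Espl1, with the letters, and Pttg1, without them, both had ranges over the 6 arrays of about 0.2. Pttg1 was read near the negative-control level, so this pair does not bear on the letters.

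The mitotic cyclins showed the largest differences of the list. Ccnb2, a B-type cyclin that activates CDK1, had signals of 10.67, 9.97 and 10.03 in Ppara+/+ replicates 1 to 3 and of 9.80, 10.31 and 9.42 in Ppara-/- replicates 1 to 3. Its log2 difference of -0.38 (SE 0.25), a signal 1.30 times as high in Ppara+/+, did not pass (limma, unadjusted p = 0.165). Its genotypes overlapped, with Ppara-/- replicate 2 above 2 of the Ppara+/+ values. Ccna2, the cyclin of S phase and mitotic entry, had the same size of difference (-0.38, SE 0.21) with 9.52, 9.16 and 9.06 against 8.77, 9.34 and 8.50. Cdk1, their kinase partner, went the other way by 0.09 (SE 0.14): its Ppara+/+ values were close together at 8.23, 8.19 and 8.16, and its Ppara-/- values of 8.21, 8.59 and 8.04 lay on both sides of them. The sign for Cdk1 rested on Ppara-/- replicate 2. Without that array its difference was -0.07 (SE 0.12), and without Ppara+/+ replicate 1 as well it was -0.05 (SE 0.09). The CDK1-activating phosphatases Cdc25b and Cdc25c differed by -0.07 and 0.02. The difference of Ccnb2 depended on single arrays: it was -0.61 (SE 0.23; limma adjusted p = 0.601) when Ppara-/- replicate 2 was left out, -0.16 when Ppara+/+ replicate 1 was, -0.17 when Ppara-/- replicate 3 was, and -0.17 with the negative-control covariate.

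The kinases that build the spindle poles also overlapped between genotypes. Plk1, which drives mitotic entry, centrosome maturation and cytokinesis, stood at 9.77, 9.63 and 9.48 in Ppara+/+ and at 9.37, 9.87 and 9.04 in Ppara-/- samples. The Ppara-/- arrays held both its highest and its 2 lowest values, and the difference was -0.20 (SE 0.20). Plk4, which starts centriole duplication, and Aurka, the spindle pole kinase, differed by -0.11 and -0.05.

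All 5 spindle checkpoint genes had a lower mean in Ppara-/-, by 0.05 to 0.25, and in all 5 the lowest of the 6 values was that of Ppara-/- replicate 3. Bub3, which carries the BUB kinases to the kinetochore, had 10.84, 10.31 and 10.43 in Ppara+/+ and 10.20, 10.71 and 9.91 in Ppara-/- samples. Its difference of -0.25 (SE 0.21) was the largest of the group. Bub1, the checkpoint kinase, had the widest spread within genotypes, with 7.67, 7.01 and 6.97 against 7.02, 7.76 and 6.71. That spread left means of 7.22 ± 0.39 and 7.16 ± 0.54 (SD, n = 3), a difference of -0.05. Bub1b and Mad2l1, which with BUB3 inhibit CDC20, and the kinase Ttk differed by -0.10, -0.16 and -0.22.

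Genes of anaphase onset varied little between arrays. The group mean was 7.77, 7.70 and 7.66 on the Ppara+/+ arrays and 7.64, 7.77 and 7.60 on the Ppara-/- arrays. Ube2c, the ubiquitin-conjugating enzyme of the anaphase-promoting complex, had 10.06, 10.13 and 10.00 in Ppara+/+ and 9.90, 10.20 and 9.79 in Ppara-/- samples, a difference of -0.10 (SE 0.13). Espl1, the separase that cleaves cohesin, was the member whose genotypes did not overlap, with 7.58, 7.49 and 7.48 against 7.38, 7.42 and 7.42. The difference was -0.11 (SE 0.09; two-sided exact permutation p = 0.1, and 3 samples against 3 allow none smaller). Pttg1, the securin that inhibits separase, was read near the negative-control level at 5.49 to 5.70 and differed by 0.08, and Cdc20, the activator that the checkpoint holds, by -0.04.

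The chromosomal passenger complex, which corrects faulty attachments and later guides cytokinesis, followed the common order of the arrays only in part. Ppara+/+ replicate 1 was the highest of its genotype in 1 of the 4 genes, Aurkb. Ppara-/- replicate 2 was the highest of its genotype in 3, and Ppara-/- replicate 3 was the lowest array in 3. Aurkb, the kinase of the complex, had 8.58, 8.43 and 8.49 in Ppara+/+ and 8.29, 8.60 and 8.14 in Ppara-/- samples, a difference of -0.16 (SE 0.13). Incenp, the scaffold, had 9.28, 9.36 and 9.13 against 9.19, 9.35 and 9.41, a difference of 0.06 (SE 0.11). Its highest value was on Ppara-/- replicate 3, the array that was lowest in most other members. Birc5 (survivin) and Cdca8 (borealin) differed by -0.03 and -0.08.

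Among centromere and kinetochore genes, 7 of 8 had a lower mean in Ppara-/- and 1, Spc24, a higher one. Nuf2, a microtubule-binding subunit of the NDC80 complex, had 7.98, 7.52 and 7.49 in Ppara+/+ and 7.27, 7.94 and 7.13 in Ppara-/- samples. The Ppara-/- values of Nuf2 were thus 2 low and 1 high, with a difference of -0.22 (SE 0.22). Spc24, from the inner end of the same complex, had 8.21, 8.50 and 8.28 against 8.50, 8.38 and 8.26, a difference of 0.05 (SE 0.12), and its lowest value was on Ppara+/+ replicate 1. Cenpa, the histone variant that marks centromeres, differed by -0.21 (SE 0.13). Knl1, the landing platform of the checkpoint, differed by -0.21 (SE 0.26), and Cenpe, Cenpf, Ndc80 and Spc25 by -0.04 to -0.14.

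All 9 kinesin motors had a lower mean in Ppara-/-, by 0.05 to 0.27, and in all 9 Ppara+/+ replicate 1 and Ppara-/- replicate 2 were the highest of their genotype. Kif20a, a motor of the central spindle, had 8.85, 8.38 and 8.46 in Ppara+/+ and 8.15, 8.83 and 7.89 in Ppara-/- samples, a difference of -0.27 (SE 0.23). Kif11, which pushes spindle poles apart, had 9.91, 9.57 and 9.38 against 9.19, 9.95 and 8.99, a difference of -0.24 (SE 0.24). In both motors Ppara-/- replicate 2 was level with the highest Ppara+/+ array. The group mean was 8.39, 7.99 and 7.98 on the Ppara+/+ arrays and 7.78, 8.40 and 7.75 on the Ppara-/- arrays.

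The spindle microtubule proteins had the lowest median among the role groups with more than 3 genes, -0.21 over 5 genes, all with a lower mean in Ppara-/-. Nusap1, which bundles spindle microtubules, had 8.24, 7.70 and 7.54 in Ppara+/+ and 7.36, 8.03 and 7.28 in Ppara-/- samples, a difference of -0.27 (SE 0.24). Tpx2, the activator of Aurora A, had 9.30, 8.86 and 8.69 against 8.59, 9.23 and 8.40, a difference of -0.21 (SE 0.23). Both genes had 1 Ppara-/- value above 2 of the Ppara+/+ values. The microtubule binder Hmmr and the central spindle bundler Prc1 differed by -0.25 and -0.21, and Tacc3, which stabilises microtubules, by -0.09.

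Among the 3 cytokinesis genes 2 had a lower mean in Ppara-/-. Ect2, the exchange factor that activates RhoA at the division plane, had 8.84, 8.27 and 8.35 in Ppara+/+ and 8.06, 8.77 and 7.98 in Ppara-/- samples, a difference of -0.22 (SE 0.23). Racgap1, its partner, differed by -0.20 (SE 0.12). Anln, an actin-binding protein of the contractile ring, had 8.45, 8.20 and 8.04 against 8.03, 8.54 and 8.12, and both groups averaged 8.23.

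The 7 genes of condensin, topoisomerase and the chromosome surface all had a lower mean in Ppara-/-, with a median of -0.17. Ncaph, a condensin subunit, had 8.44, 8.10 and 8.14 in Ppara+/+ and 7.79, 8.35 and 7.56 in Ppara-/- samples. Ppara-/- replicates 1 and 3 lay below every Ppara+/+ value, and the difference was -0.33 (SE 0.20; limma, unadjusted p = 0.136). When Ppara-/- replicate 2 was left out it was -0.55 (SE 0.15; limma adjusted p = 0.407). It was -0.16 when Ppara-/- replicate 3 was left out, -0.22 when Ppara+/+ replicate 1 was, and -0.18 with the negative-control covariate. Mki67, the proliferation marker Ki-67 that coats mitotic chromosomes, gave the highest signals of the list, with 11.70, 11.35 and 11.29 against 11.00, 11.71 and 11.07. Its highest value was thus in a Ppara-/- sample, and the difference was -0.19 (SE 0.20). Top2a, Smc2, Smc4, Ncapd2 and Ncapg differed by -0.06 to -0.19.

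Mybl2, which encodes the activator B-MYB, had 8.42, 8.30 and 8.19 in Ppara+/+ and 8.30, 8.42 and 8.06 in Ppara-/- samples, a difference of -0.04 (SE 0.12). Cdca2, a phosphatase-targeting subunit, had 8.17, 8.03 and 7.99 against 7.94, 8.40 and 7.87, a difference of 0.01 (SE 0.15). Cdca3, a trigger of mitotic entry, had 6.74, 6.95 and 6.88 against 6.83, 6.70 and 6.78, a difference of -0.09 (SE 0.10). In Cdca3 the usual order of the arrays was turned round: Ppara+/+ replicate 1 and Ppara-/- replicate 2 had the lowest value of their genotype. The 10 members without the common order were Cdca3, Cdc25b, Aurka, Ube2c, Pttg1, Espl1, Birc5, Incenp, Cdca8 and Spc24.

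**Figure D4:**
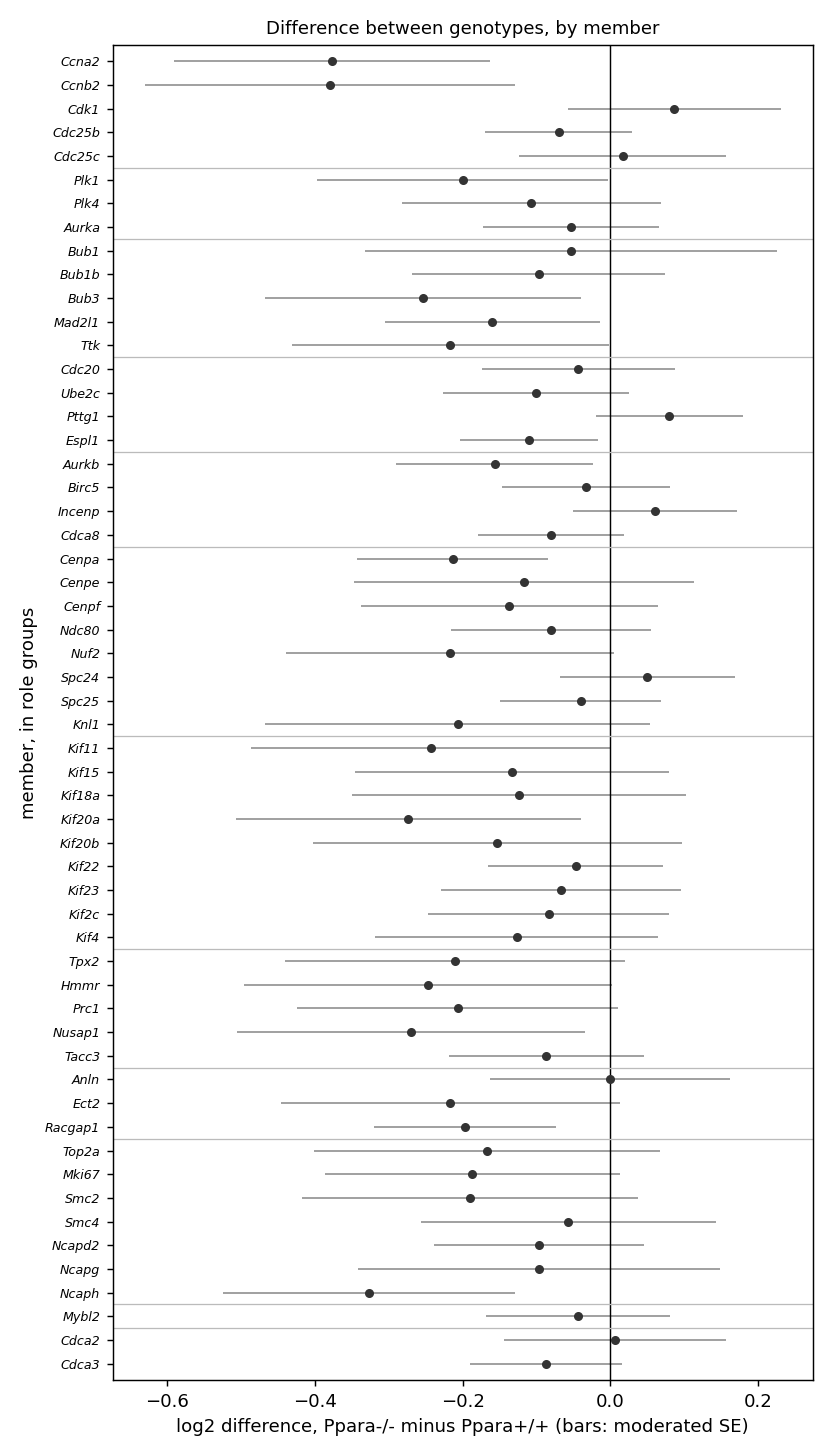
The log2 difference, Ppara-/- minus Ppara+/+, is plotted for each of the 56 members, with bars of 1 moderated SE and grey lines between role groups. The differences run from -0.38 to 0.09, and in 43 members the SE is larger than the difference.

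Other genes of cell division were read as lists of their own, and no member of any of them passed the test in limma. Of 31 further centromere and kinetochore genes 23 had a lower mean in Ppara-/-, and of 34 further spindle, centrosome and midbody genes 23. Of 17 genes of the anaphase-promoting complex 14 did, and of 11 condensin relatives and cohesin loaders 8. The medians of these lists lay between -0.07 and -0.09. A lower mean was found in 41.6% of all genes and in 54.2% of the 4001 of stronger signal. Cenpm, a subunit of the inner kinetochore, had 8.05, 8.04 and 8.01 in Ppara+/+ and 7.75, 7.75 and 7.31 in Ppara-/- samples, without overlap (log2 difference -0.43, SE 0.14; limma adjusted p = 0.562). Zw10, which recruits dynein to kinetochores, had 8.01, 7.77 and 8.00 against higher values of 8.08, 8.51 and 8.20 (log2 difference 0.34, SE 0.14; limma adjusted p = 0.815). Mis18a, which helps to load CENP-A, differed by -0.30 (SE 0.14). In the centromere and kinetochore list 2 of 31 genes lay lower and 2 higher without overlap, where 3.63% and 5.15% of all genes did. In the spindle list Sass6 (centriole assembly), Tubg1 (gamma-tubulin) and Cit (citron kinase) had the smallest p, with differences of -0.33, -0.16 and 0.14, and in the anaphase-promoting complex list Anapc15, Fbxo5 and Cdc26 had -0.22, -0.17 and -0.17. Cdca5 (sororin), Top2b and Esco2 led the condensin and cohesin list with -0.20, -0.29 and -0.22.

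Genes of the earlier cell cycle and of mitotic entry and exit also had a lower mean in Ppara-/- for most members, apart from the G1 list. Of 33 DNA replication genes 29 had a lower mean in Ppara-/- (median -0.11), and of 14 E2F and MuvB genes 11 (-0.11). Of 19 genes of entry brakes, CDK1 partners and exit phosphatases 16 did (-0.16). The share was 41.6% over all genes and 54.2% over the 4001 of stronger signal. E2f2, an activating E2F, had 8.33, 7.94 and 8.19 in Ppara+/+ and 7.73, 7.81 and 7.75 in Ppara-/- samples, and the MuvB subunit Lin37 had 8.41, 8.41 and 8.49 against 8.28, 8.19 and 8.21. Neither overlapped between genotypes, with differences of -0.39 (SE 0.12, adjusted p = 0.545) and -0.21 (SE 0.09, adjusted p = 0.889) in limma. They were the 2 of 14 genes in their list that lay lower without overlap, where 3.63% of all genes did. Ppp2r1a, the scaffold of phosphatase 2A, and Cdc25a differed by -0.36 and -0.35 (unadjusted p = 0.0374 and 0.0458, limma) and Pimreg by -0.20. The MuvB subunit Lin54 differed by -0.20, and Tyms, Gins1 and Prim1 of the replication list by 0.37, -0.27 and -0.36.

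The G1 list split, with 9 of 17 genes lower and 8 higher, and held the largest differences of any cell cycle gene read here. Cdkn1c, the CDK inhibitor p57, had 6.64, 6.68 and 6.92 in Ppara+/+ and 7.76, 8.02 and 7.51 in Ppara-/- samples, a signal 2.02 times as high (log2 difference 1.02, SE 0.15; limma adjusted p = 0.0626). Cdkn1a, the CDK inhibitor p21, had 9.09, 8.92 and 9.52 against 8.07, 8.27 and 8.62, so that Ppara+/+ signals were 1.81 times as high (log2 difference -0.86, SE 0.19; limma adjusted p = 0.221). Ccnd2, a D-type cyclin of G1, had 5.49, 5.77 and 5.59 against 6.36, 6.08 and 6.22 (log2 difference 0.60, SE 0.12; limma adjusted p = 0.182). The genotypes did not overlap in these 3 genes, and none passed the threshold. Every signal of Ccnd2 lay under 7.91, the lowest array's 95th percentile of the negative controls. So did those of Cdkn1c, except 8.02 in Ppara-/- replicate 2. Over the whole G1 list 5 of 17 genes did not overlap, 3 lower and 2 higher in Ppara-/-, where 3.63% of all genes lay lower and 5.15% higher without overlap.

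**Figure D5:**
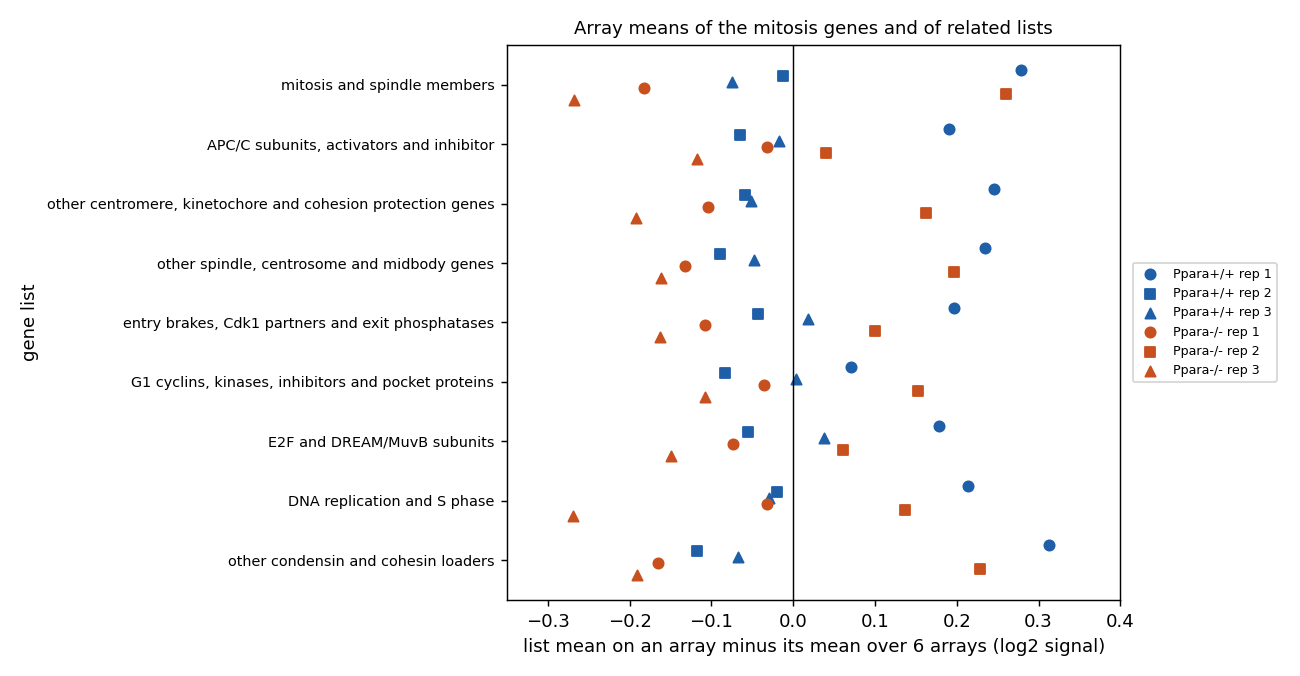
The mean of each gene list on each array is plotted as its distance from the list's mean over the 6 arrays (log2 signal), with Ppara+/+ in blue, Ppara-/- in orange and a marker shape for each replicate number. Ppara+/+ replicate 1 and Ppara-/- replicate 2 are the 2 highest arrays in all 9 lists and Ppara-/- replicate 3 is the lowest.

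The lists of other cell types had another order, and no marker of any list passed the test (limma). On Ppara+/+ replicate 1 the erythroid, B cell, T cell, NK cell and megakaryocyte lists had their lowest array mean (4.96, 4.74, 5.03, 3.89 and 5.28), and the stromal list had its lowest, 5.17, on Ppara-/- replicate 2. The myeloid list was highest on Ppara+/+ replicate 1 and Ppara-/- replicate 2, at 10.18 and 10.11. Neither order was particular to cell types. The mean over all 30142 genes was also lowest on these 2 arrays, at 5.56 and 5.58. The mean over the 4001 genes of stronger signal was highest on them, at 9.49 and 9.43. Among the 14 myeloid markers the genotypes did not overlap in Csf1r, lower in Ppara-/- (log2 difference -0.94), and in 3 higher ones. These were Kit (0.54), Csf3r (0.37) and Hoxa10 (0.35). Of the 49 others Pdgfrb (-1.03) and Cd79b (-0.40) lay lower without overlap, both with mean signals under 7.91, like Hoxa10. Over all genes 3.63% lay lower and 5.15% higher without overlap.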

How the data were processed

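Total RNA of 6 sorted leukemia samples was hybridised to Affymetrix arrays, and the titles gave each sample's genotype and replicate number. The authors deposited log2 signals of probe sets. RMA and limma are named, without version, in the submitters' processing notes, and the build is not given in the sources used here. Quantile normalization, a step of RMA, can hide a shift shared by most genes. Of 72688 rows 6732 were controls; of the others 30604 carried 1 gene symbol, 2146 several and 33206 none in the annotation used. Older symbols (Casc5 for Knl1) were updated by gene ID, and the brightest probe set stood for a gene that had several. The genotypes were compared with limma 3.58.1 (R 4.3.3), with lmFit and eBayes on all 30142 genes, no covariates and an adjusted p threshold of 0.05.

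Members and lists were chosen with earlier results of these data known. Every member could be named. All 6 values are given for members with an unadjusted p under 0.05 (0 members), for the largest difference and the highest signal in each role group, and for Ccna2, Cdk1, Bub1 and Anln, which were singled out after their values were seen. From each related list the 3 genes of smallest p were named. On simulated data for this comparison (30142 genes, 5 simulations) 17.5% of the genes changed by 0.5 (log2), 97.3% of those changed by 1 and 100% of those changed by 2 were called. The noise was drawn independently for each gene and array, without the array shifts that most members shared. The rates therefore need not hold for the members. In the measured data Cdkn1c, with a log2 difference of 1.02, was not called. All differences of members were below 0.5. Alternatives were another variance prior, 2 other normalizations, leaving out dim genes, averaging the probe sets of a gene, array weights, a replicate block, a control covariate and arrays left out.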

Additional observations from a re-analysis of the deposited data

How the results depend on the processing

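The count of 0 mitosis genes past the threshold held in all 15 alternatives (limma, lowest adjusted p of a member in any of them 0.309). The median and the difference of the module means moved by less than the SD of the module means within a genotype (0.24). That SD is larger in size than both values in the main fit (-0.11 and -0.13), so this limit cannot show that they are stable. The median with 1 array left out ran from -0.30 to -0.02 and the difference of the module means from -0.29 to -0.02. Of the 56 members 32 to 53 had a lower mean with 1 array left out and 31 with the negative-control covariate; with dim genes left out it was 28 of the 32 that remained. Over all genes 38 passed; the count was 271 with array weights, 70 with a trended and robust prior, 23 and 13 after quantile normalization and median centring, 4 without dim genes, 6 to 38 with 1 array left out (6 without Ppara-/- replicate 1, 17 without Ppara-/- replicate 2 or 3, 13 without Ppara+/+ replicate 3) and 0 without both arrays of high control signal (2870 at an unadjusted p under 0.05, limma). With the replicate number as a block 12 genes and 0 members passed; the deviations of same-numbered samples correlated at -0.33, -0.47 and 0.11, so the numbers are not taken as pairs. Of 280 values of the 19 named members 14 changed sign. Cdca2 was at -0.0447 with array weights, -0.0117 after median centring and -0.105 without both arrays, and from -0.16 to 0.11 with 1 left out. Mybl2 was at 0.017 with array weights and 0.0126 with the covariate, and from -0.12 to 0.0567 with 1 left out. Spc24 was at -0.01 without both arrays and from -0.01 to 0.14 with 1 left out, and Incenp from -0.0033 to 0.12. Fewer genes or samples enter the filtered and left-out fits; the cause of the other changes was not tested. The number of arrays limits the precision.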
